A study of Mus musculus with 4 samples.

Results

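The contractile protein core of smooth muscle was taken as 10 genes: Acta2, Actg2, Tpm1, Tpm2, Cnn1, Tagln, Smtn, Myh11, Myl9 and Mylk. Every probe set listed with 1 of these symbols alone in the platform's probe table was included, which gave 11 probe sets of 12488 on the array. Each gene had 1 probe set except Tpm2, which had 2. RNA abundance was measured on Affymetrix oligonucleotide arrays in RNA pooled from aortas of adult C57BL/6J males. The rosiglitazone group (2 arrays, numbered 1 and 2) came from mice given this PPARγ agonist at 25 mg/kg per day for 21 days. The vehicle group (2 arrays, numbered 3 and 4) came from mice given vehicle over 21 days. The labels give neither the number of animals in a pool nor whether the arrays of a group held separate pools, so p-values refer to spread among arrays that may be technical.

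Vascular smooth muscle contracts when myosin filaments pull on actin filaments. A rise in calcium activates the calmodulin-dependent kinase encoded by Mylk, which phosphorylates the regulatory light chain Myl9 and so lets the myosin heavy chain Myh11 cycle on filaments of the actins Acta2 and Actg2. Tropomyosins, calponin, transgelin and smoothelin bind those filaments. These genes mark the differentiated, contractile state of the medial cells of the aorta. Many of them are transcribed through CArG boxes, the sites of serum response factor (SRF), which works there with its coactivator myocardin.

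Promoter sequence was available in the RefSeq table (GRCm38.p6) for 7 of the 10 genes. Actg2, Tagln and Myh11 had no entry. The 250 bases before the transcript start that the table uses are shown for the 5 genes in which a motif was found, because the core is known for shared promoter elements. That start is the outermost annotated start of Smtn, but it lies 56 bases inside that of Myl9, 212 inside that of Acta2, 459 inside that of Tpm1 and 39751 inside that of Mylk, so other transcripts of these 4 genes begin upstream of it. Capitals mark CArG boxes, CArG boxes with 1 G or C in the run of A or T, and the letters CATTCC or GGAATG, the same motif on the other strand, which is the MCAT element bound by TEAD factors. The CArG patterns read alike on both strands, and no match overlaps another. The windows are chr19:34255374-34255623 on the minus strand, chr2:156775214-156775463 on the plus strand, chr11:3539293-3539542 on the minus strand, chr9:67049214-67049463 on the minus strand and chr16:34784700-34784949 on the plus strand, in the order shown.
Acta2: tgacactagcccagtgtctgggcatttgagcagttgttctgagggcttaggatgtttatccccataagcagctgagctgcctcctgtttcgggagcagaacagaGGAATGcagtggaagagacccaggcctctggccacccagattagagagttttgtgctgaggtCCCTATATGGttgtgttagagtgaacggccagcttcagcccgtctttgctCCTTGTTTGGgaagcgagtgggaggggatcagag
Myl9: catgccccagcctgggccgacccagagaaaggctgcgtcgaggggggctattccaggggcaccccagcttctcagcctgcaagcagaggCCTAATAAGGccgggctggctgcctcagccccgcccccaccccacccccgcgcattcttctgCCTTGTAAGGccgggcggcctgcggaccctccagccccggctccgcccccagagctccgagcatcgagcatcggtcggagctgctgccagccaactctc
Smtn: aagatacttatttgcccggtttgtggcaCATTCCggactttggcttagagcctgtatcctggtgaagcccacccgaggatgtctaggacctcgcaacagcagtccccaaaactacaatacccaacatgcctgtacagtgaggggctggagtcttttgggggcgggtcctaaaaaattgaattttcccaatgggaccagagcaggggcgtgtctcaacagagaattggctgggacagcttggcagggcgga
Tpm1: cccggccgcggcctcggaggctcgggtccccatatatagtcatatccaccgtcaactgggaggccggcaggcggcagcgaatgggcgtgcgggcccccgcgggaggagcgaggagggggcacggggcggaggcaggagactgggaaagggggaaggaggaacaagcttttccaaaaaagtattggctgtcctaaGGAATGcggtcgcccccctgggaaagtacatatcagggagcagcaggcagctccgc
Mylk: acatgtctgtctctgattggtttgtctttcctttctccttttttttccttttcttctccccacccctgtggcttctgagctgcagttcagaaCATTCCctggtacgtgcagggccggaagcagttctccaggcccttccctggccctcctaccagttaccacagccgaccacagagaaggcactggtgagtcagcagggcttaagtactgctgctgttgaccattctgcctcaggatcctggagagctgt
An exact CArG box was found before 1 of the 7 genes, Myl9, at 161 bases before that start, against 1.47% of 32851 promoter windows of the same length. The form with 1 G or C was found before 2 of the 7, Acta2 at 84 and 34 bases and Myl9 at 99 bases before it, against 7.24% of all windows. The MCAT letters stood before 4 of the 7, Acta2 at 146, Tpm1 at 56, Smtn at 222 and Mylk at 158 bases, against 12.6% of all windows. Cnn1 and Tpm2 held none of these letters in this window. A match is a run of letters and not a measured binding site.

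On the arrays, the deposited intensities had a mean of 1501 on every array with 2% trimmed at each end, and medians of 591 and 620 with rosiglitazone, against 648 and 635 with vehicle. Values below 148 (the pooled 20th percentile) were raised to 148, and probe sets with a mean under 414, the 40th percentile, were not tested. That left 7134 probe sets, of which 10 belonged to the core, 1 for each gene. The second probe set of Tpm2 was too dim. Smtn passed through its vehicle arrays, since its mean with rosiglitazone lay under 414. Of the 11 probe sets, 10 lay above 148 on all 4 arrays, so transcripts that define smooth muscle were measured in the tissue of both groups. The ratio of 3' to 5' signal of Gapdh, an indicator of RNA integrity, was 8.79 and 10.8 with rosiglitazone, against 11.1 and 11.1 with vehicle. That of actin overlapped, at 7.74 and 9.62 with rosiglitazone, against 8.88 and 11.9 with vehicle. The part of RNA integrity in the differences below was not tested.

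Most transcripts of the contractile core had lower values in the aortas of rosiglitazone-treated mice. Both rosiglitazone arrays lay under both vehicle arrays for 9 of the 10 tested probe sets, against 21.8% of all probe sets tested. The median log2 fold change of the core (rosiglitazone minus vehicle) was -1.07, beside -0.02 over all probe sets, and all 10 values were below 0, as were 51.9% of all probe sets. Transcripts at or below a log2 fold change of -1 were those of Smtn, Myh11, Cnn1, Tagln, Acta2 and Tpm1, 6 of 10 against 6.98% of all. Only Tagln passed an adjusted p of 0.05 (limma, Benjamini-Hochberg over all 7134), 1 of 10 where 0.322% of all probe sets passed on the lower side, and 0 of 10 on the higher side, where 0.0421% of all passed. Both rosiglitazone arrays lay over both vehicle arrays for 0 of 10, against 19.0% of all. At an unadjusted p under 0.05 there were 8 of 10, against 5.76% lower over all probe sets. Without Smtn, which passed the filter through vehicle alone, the groups did not overlap for 8 of 9 and the median was -1.01. In bulk tissue, fewer smooth muscle cells and less RNA per cell cannot be told apart.

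**Figure D1:**
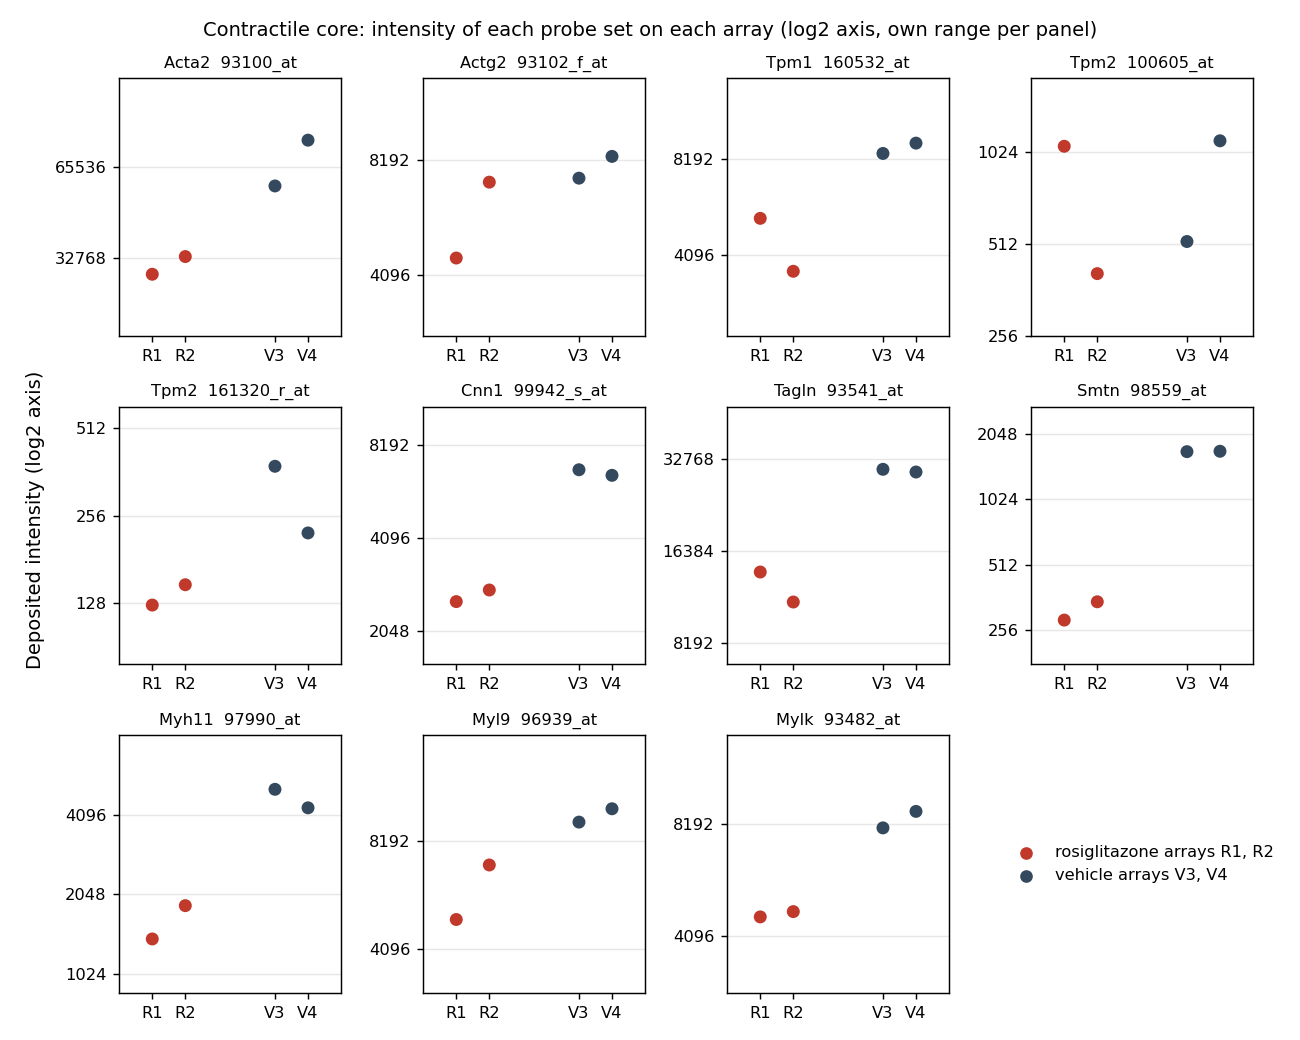
Deposited intensity (log2 axis, own range per panel) of the 11 probe sets of the contractile core on the 2 rosiglitazone arrays (R1, R2, red) and the 2 vehicle arrays (V3, V4, dark). The groups separate in every panel except that of the brighter Tpm2 probe set, where 1068 and 409 with rosiglitazone overlap 521 and 1113 with vehicle.

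Among the actins, Acta2, the alpha actin that is the most used marker of smooth muscle, had intensities of 28866 and 33031 with rosiglitazone, against 56544 and 80133 with vehicle. The groups did not overlap, and the vehicle arrays differed from each other more than the rosiglitazone arrays did. The log2 fold change was -1.12 (SE 0.23), or 2.18-fold lower, and did not pass (limma, adjusted p = 0.0799). Actg2, the gamma actin typical of visceral smooth muscle, had 4524 and 7148 with rosiglitazone, against 7322 and 8349 with vehicle. The second rosiglitazone array came within a small margin of the lower vehicle array, and the groups overlapped with each array centred on its median, which left 8 of the 10 core probe sets without overlap. Its log2 fold change was -0.46 (95% interval -1.06 to 0.14, limma adjusted p = 0.585), so a difference was not shown. In the maker's naming the ending f_at marks a probe set that can bind members of a sequence family, and the actins are such a family. Signal of other actins in the Actg2 value was not tested.

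Of the tropomyosins, which lie along the actin filament and stabilise it, Tpm1 had 5338 and 3634 with rosiglitazone, against 8553 and 9219 with vehicle. Both treated arrays were below both controls, and the treated pair differed more from each other. The log2 fold change was -1.01 (SE 0.25) (limma, adjusted p = 0.144). Tpm2 was measured at 1068 and 409 with rosiglitazone, against 521 and 1113 with vehicle on its brighter probe set. The values interleaved, and the log2 fold change of -0.20 had a 95% interval of -1.68 to 1.27 (limma, adjusted p = 0.942). On its dim probe set Tpm2 had 126 and 148 with rosiglitazone, against 378 and 223 with vehicle. There the groups did not overlap, but the values lay at or near the floor and were not tested. With no filter the log2 fold change of the dim probe set was -0.97, within the 95% interval of the brighter one. The probe sets of Tpm2 thus differed in overlap, but a difference in fold change between them was not shown. Which of them follows the smooth muscle transcript was not tested.

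Cnn1 encodes calponin, a thin filament protein that restrains the myosin ATPase. Its intensities were 2547 and 2778 with rosiglitazone, against 6829 and 6549 with vehicle. Replicates lay close together in both groups, and mean log2 intensity was 11.38 ± 0.09 with rosiglitazone, against 12.71 ± 0.04 with vehicle (mean ± SD, n = 2 each). Cnn1 was 2.51-fold lower, a log2 fold change of -1.33 (SE 0.24), and did not pass (limma, adjusted p = 0.0674).

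Transgelin, or SM22α, which binds and bundles actin, is encoded by Tagln, which had 13947 and 11127 with rosiglitazone, against 30220 and 29615 with vehicle. The vehicle arrays were nearly equal and both rosiglitazone arrays lay well below them. Tagln fell 2.40-fold (95% interval of the log2 fold change -1.73 to -0.80, limma adjusted p = 0.0455). The size varied little when 1 array was left out, at log2 fold changes of -1.43 to -1.10, but the call was lost without vehicle replicate 3 (adjusted p = 0.545) and without vehicle replicate 4 (adjusted p = 0.672). It was also lost with each array centred on its median (log2 fold change -1.18, adjusted p = 0.0952).

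Smtn, smoothelin, a cytoskeletal protein found in contractile smooth muscle, had the largest difference of the 10. Its values were 285 and 346 with rosiglitazone, against 1698 and 1705 with vehicle. Each group was tight, and the groups stood far apart. Smtn was 5.42-fold lower, a log2 fold change of -2.44 (SE 0.50), which did not pass (limma, adjusted p = 0.0799). That standard error draws on the spread of other probe sets of like intensity, since the arrays of Smtn itself had SDs of 0.20 with rosiglitazone and 0.0042 with vehicle on the log2 scale.

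For the motor itself, Myh11, the smooth muscle myosin heavy chain and the most specific marker of the lineage, had 1390 and 1858 with rosiglitazone, against 5118 and 4356 with vehicle. No rosiglitazone value came near a vehicle value. Myh11 was 2.94-fold lower (log2 fold change -1.55, standard error 0.29, limma adjusted p = 0.0687) and did not pass. Myl9, the regulatory light chain whose phosphorylation starts contraction, had 4950 and 7018 with rosiglitazone, against 9235 and 10058 with vehicle. Its groups did not overlap, with a log2 fold change of -0.71 (limma, adjusted p = 0.316). Mylk, the light chain kinase, had 4603 and 4756 with rosiglitazone, against 7981 and 8838 with vehicle. Both groups were tight, and Mylk had a log2 fold change of -0.84 (SE 0.22) (limma, adjusted p = 0.161). One gene can make several proteins here: Mylk also encodes a long non-muscle kinase and telokin, and the array's values do not separate them.

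**Figure D2:**
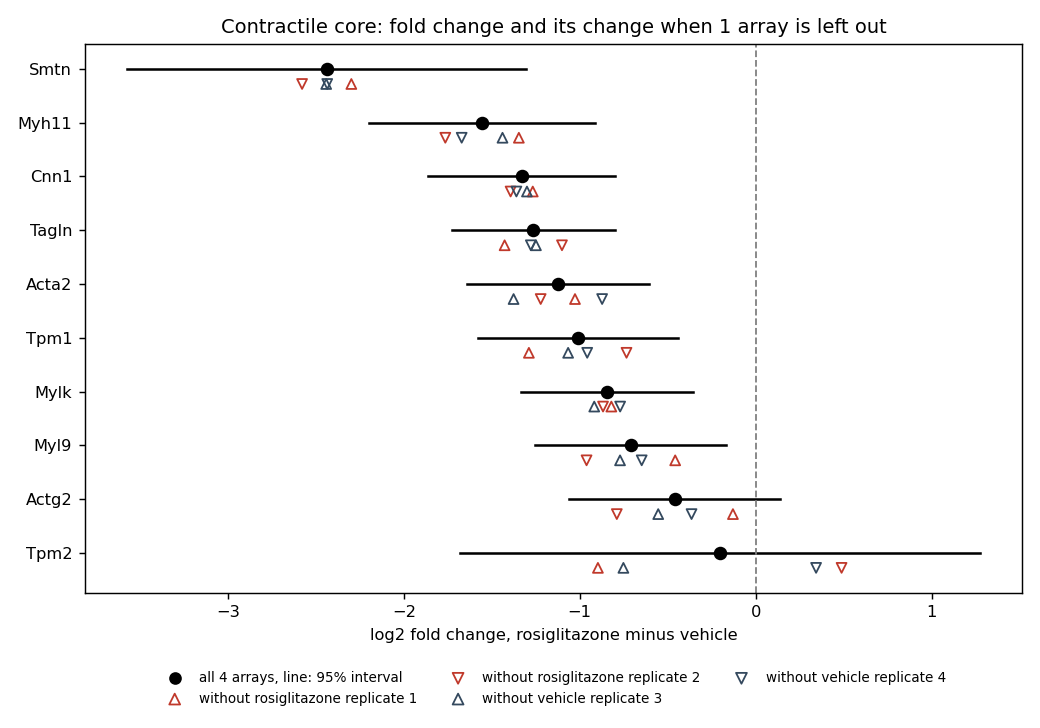
Log2 fold change (rosiglitazone minus vehicle) of the tested probe set of each core gene, with its 95% interval in limma, and the values with 1 array left out as triangles. Smtn is lowest at -2.44, and the intervals of Actg2 and Tpm2 alone include 0.

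Leaving out single arrays changed the direction of 1 core gene. Tpm2 had log2 fold changes of 0.49 without rosiglitazone replicate 2 and 0.34 without vehicle replicate 4. Actg2 was the next least stable, with -0.13 when rosiglitazone replicate 1 was left out and -0.79 when rosiglitazone replicate 2 was. Myl9 had -0.46 and -0.96 under the same omissions, and Tpm1 had -1.29 and -0.73, the opposite order. Mylk, Cnn1 and Smtn moved least in proportion to their size. Without rosiglitazone replicate 2, 4 core probe sets passed in limma, those of Tagln, Cnn1, Smtn and Myh11, among 78 of all 7134 probe sets. Without vehicle replicate 3 and without vehicle replicate 4, 0 core probe sets passed and 7 had an unadjusted p under 0.05, among 524 and 467 of all.

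The core genes did not share the small differences between arrays of a group in full. With rosiglitazone, array 1 was below array 2 for 7 of 10 tested probe sets, with Tpm1, Tpm2 and Tagln the exceptions. With vehicle, array 3 was below array 4 for 7 of 10, with Cnn1, Tagln and Myh11 the exceptions. The median SD between arrays of a group was 0.26 for rosiglitazone and 0.10 for vehicle on the log2 scale, beside 0.29 and 0.25 over all probe sets tested. The vehicle arrays thus lay close together in the core.

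Each family has members that are also made outside smooth muscle, and these did not behave alike. Tagln2, the transgelin of many cell types, had 10043 and 9891 with rosiglitazone, against 10768 and 8935 with vehicle, with overlap and a log2 fold change of 0.02 (95% interval -0.45 to 0.50), whose sign turned under quantile normalization (-0.07). That interval lies apart from the interval of Tagln. Myl12b, a regulatory light chain of non-muscle myosin, had 0.12 (95% interval -0.36 to 0.60), and the essential light chain Myl6b had 0.09. Cnn3, the acidic calponin, stood with Cnn1: 2403 and 2516 with rosiglitazone against 5682 and 5859 with vehicle. The log2 fold change of Cnn3 was -1.23 and did not pass (limma, adjusted p = 0.0788). Cnn3 was measured on a family probe set alone (ending f_at), and signal of Cnn1 in its value was not tested.

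The cytoplasmic actins also had log2 fold changes below 0, and none passed in limma. Actg1 had 20952 and 19881 with rosiglitazone, against 37096 and 37001 with vehicle, a log2 fold change of -0.86 (limma, adjusted p = 0.105). Actb had -0.78 and -1.01 on its probe sets. The heart actin Actc1 had -0.29 and -0.53, with intervals that include 0. Myh9, a non-muscle myosin heavy chain, had -1.03 on a family probe set and -0.21 on the other, so its probe sets disagree. Among tropomyosins outside the core, Tpm4 had -0.81 (limma, adjusted p = 0.196), while both probe sets of Tpm3 had intervals around 0, at -0.13 and -0.15. Myh10, Tagln3, Acta1 and Myl6 were too dim to test. No paralogue outside the core passed in limma, and the differences between members of a family were not tested.

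**Figure D3:**
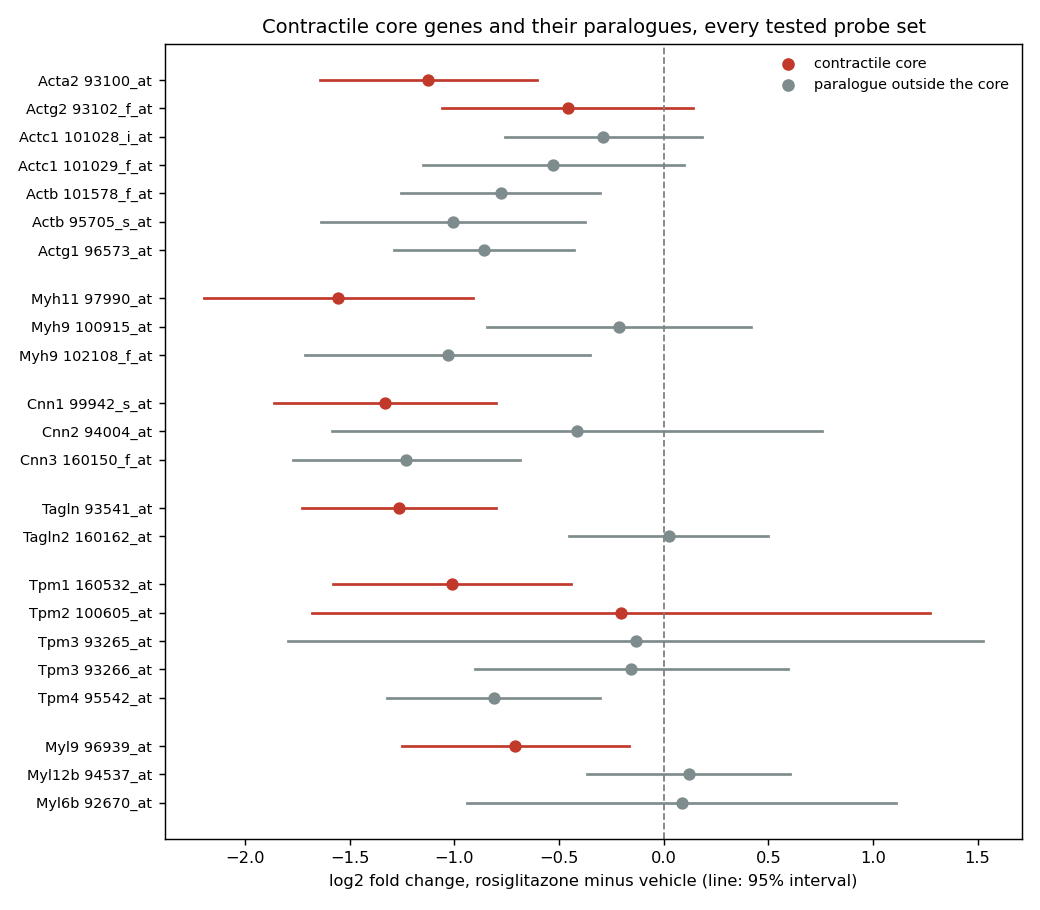
Log2 fold change (rosiglitazone minus vehicle) with 95% interval for every tested probe set of the actins, myosin heavy chains, calponins, transgelins, tropomyosins and light chains, with core genes in red and paralogues outside the core in grey. Tagln at -1.26 stands apart from Tagln2 at 0.02, while Cnn1 at -1.33 and Cnn3 at -1.23, the latter on a family probe set, lie together.

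Other genes of smooth muscle also had values below 0, and 0 of them passed in limma, where 0.329% of all genes tested passed on the lower side. Of 25 listed, 17 were on the array and 13 tested. All 13 had log2 fold changes below 0, beside 51.8% of all genes, with a median of -0.64. In 8 both rosiglitazone arrays lay under both vehicle arrays, beside 1202 of all 5466 genes. Without Kcnmb1, which passed the filter through vehicle alone, 7 of 12 did and the median was -0.56. The difference between this list and the core was not tested. Centring the arrays on their medians left 12 of the 13 below 0. Csrp1, an actin-bundling LIM protein, had 1919 and 1202 with rosiglitazone, against 5013 and 3264 with vehicle (log2 fold change -1.41, limma adjusted p = 0.137). Lpp, a focal adhesion protein, had 2980 and 1678 with rosiglitazone, against 5269 and 5879 with vehicle (-1.32, limma adjusted p = 0.122). Kcnmb1, the smooth muscle subunit of a calcium-activated potassium channel, had 98 and 161 with rosiglitazone, against 978 and 1279 with vehicle. With 1 of its rosiglitazone values raised to the floor, no fold is given for Kcnmb1. Npnt, nephronectin, had -1.04.

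Genes that set light chain phosphorylation did not all have the same sign. Of 18 listed, 9 were on the array and 7 tested, with 5 below 0, a median of -0.24 and 0 past the threshold in limma. Ppp1cb, the catalytic subunit of myosin phosphatase, had 2460 and 3409 with rosiglitazone, against 6342 and 7371 with vehicle, a log2 fold change of -1.24 (limma, adjusted p = 0.0889). Ppp1r14b, from a family of inhibitors of that phosphatase, was higher on both rosiglitazone arrays, at 12225 and 11486 against 4863 and 9972 with vehicle (0.77, limma adjusted p = 0.423). The calcium channel Cacna1c, which passed the filter through vehicle alone, had 514 and 198 with rosiglitazone, against 1085 and 628 with vehicle (limma adjusted p = 0.562). Rock1, a kinase that inhibits the phosphatase, had -0.80. The small GTPase Rhoa, which activates Rock1, had -0.09 with overlapping groups.

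Regulators of contractile genes were measured in part. Of 21 listed, 18 were on the array and 10 tested, with 6 below 0 and 4 above and a median of -0.09. The counts below and above 0 were 5 and 5 with each array centred on its median. In limma 0 passed, where 0.329% of all genes tested passed on the lower side and 3 of 5466 on the higher. Srf and Myocd were not analysed here. Mef2a, a muscle transcription factor of the same MADS-box family as SRF, had 1937 and 1232 with rosiglitazone, against 3406 and 3847 with vehicle (log2 fold change -1.23, limma adjusted p = 0.164). Klf4, which in smooth muscle represses contractile genes, had -0.65, and the LIM protein Fhl1 had -0.42. Gata6, a transcription factor of vascular smooth muscle, had 778 and 1048 with rosiglitazone, against 424 and 165 with vehicle. It passed the filter through rosiglitazone alone and did not pass in limma (adjusted p = 0.438).

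**Figure D4:**
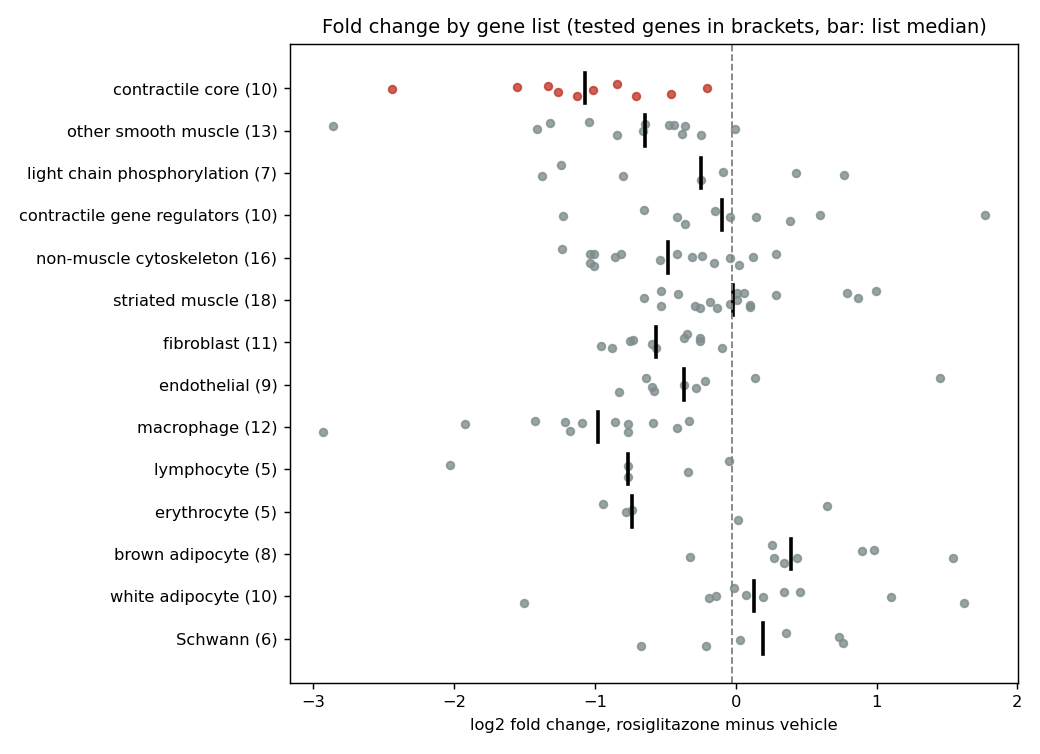
Log2 fold change (rosiglitazone minus vehicle) of every tested gene, on its brightest probe set, by gene list. Bars are list medians, the dashed line is the median of all genes tested (-0.02), and the contractile core (red) has a median of -1.07.

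Markers of other cell types moved on the same arrays, and their part in the core's difference was not tested. The core's summed intensity was 67518 and 72105 with rosiglitazone, against 134021 and 159935 with vehicle. Brown adipocyte markers summed to 419430 and 458044 with rosiglitazone, against 302725 and 297395 with vehicle, and 7 of 8 tested genes lay above 0 (median 0.39). White adipocyte markers summed to 391348 and 412744 with rosiglitazone, against 331841 and 344303 with vehicle. Of the genes tested 6 of 10 lay above 0, with a median of 0.13. Without the gene that passed the filter through rosiglitazone alone, 4 of 9 lay below 0 and the median was 0.07. Adipocyte markers were thus measured on all 4 arrays, and their sums were higher on both rosiglitazone arrays.

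Markers of several cell types of the wall and the blood had lower values. Fibroblast markers summed to 98165 and 116056 with rosiglitazone, against 148155 and 175793 with vehicle, with 11 of 11 below 0 and a median of -0.57. Macrophage markers summed to 37183 and 34363 with rosiglitazone, against 80809 and 86983 with vehicle. Of the genes tested 12 of 12 were below 0, with a median of -0.97. Without the gene that passed the filter through vehicle alone, 11 of 11 were below 0 and the median was -1.09. Lymphocyte markers summed to 5846 and 6119 with rosiglitazone, against 8118 and 8443 with vehicle. Of the lymphocyte genes tested 5 of 5 were below 0, and 4 of 5 with each array centred on its median. The others having passed the filter through vehicle alone, 3 lay over it in both groups. These 3 were below 0, with a median of -0.34. All 3 sums were lower on both rosiglitazone arrays, and the macrophage median lay close to that of the core. In 11 of 12 macrophage, 5 of 11 fibroblast and 2 of 5 lymphocyte genes both rosiglitazone arrays lay under both vehicle arrays. The core had 9 of 10, and all genes tested 1202 of 5466. The reverse held in 0 genes of these 3 lists, beside 1042 of all 5466. Among genes over the filter in both groups the counts were 10 of 11 macrophage, 1 of 3 lymphocyte and 8 of 9 core genes. Endothelial markers overlapped between the groups in summed intensity, at 28045 and 35285 with rosiglitazone, against 33127 and 41554 with vehicle. Of these genes 7 of 9 were below 0, with a median of -0.37. In 5 of the 9 both rosiglitazone arrays lay under both vehicle arrays, and in 1 the reverse held. Erythrocyte sums overlapped too, at 507470 and 669832 with rosiglitazone, against 564339 and 658452 with vehicle. Most of each sum was hemoglobin Hba-a1, at 467487 and 616423 with rosiglitazone, against 493863 and 569180 with vehicle. The erythrocyte list had 3 of 5 below 0 and a median of -0.73. In 3 of the 5 both rosiglitazone arrays lay under both vehicle arrays, and in 0 the reverse held, beside the same shares of all genes.

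Striated muscle shares Tpm1 and Tpm2 with smooth muscle. Its 27 listed genes had sums of 47338 and 48421 with rosiglitazone, against 49747 and 53355 with vehicle, lower by a small margin on both rosiglitazone arrays. Of these genes 9 of 18 tested were below 0. Their median was -0.02, which turned to 0.07 with each array centred on its median. The order of the sums depends on Actc1 on a family probe set, at 8757 and 14458 with rosiglitazone, against 14000 and 18776 with vehicle. Signal of other actins in that value was not tested. Schwann cell markers summed to 7802 and 7628 with rosiglitazone, against 8550 and 6930 with vehicle, with 2 of 6 below 0. Without the gene that passed the filter through rosiglitazone alone, 2 of 5 were below 0. In each of these cell type lists at most 1 gene passed in limma. Of all 5466 genes tested 0.329% passed on the lower side and 3 genes on the higher. The listed genes that passed were Cd14 of the macrophage list (-2.93, limma adjusted p = 1.45e-04) and Fabp3 of the brown adipocyte list (1.55, limma adjusted p = 0.024). The non-muscle cytoskeleton list, with 13 of 16 below 0 and a median of -0.48, had 0 past the threshold. No listed marker was at 0 on any array. In each of the striated muscle, non-muscle cytoskeleton and regulator lists, 1 gene lay under the floor on all 4 arrays.

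**Figure D5:**
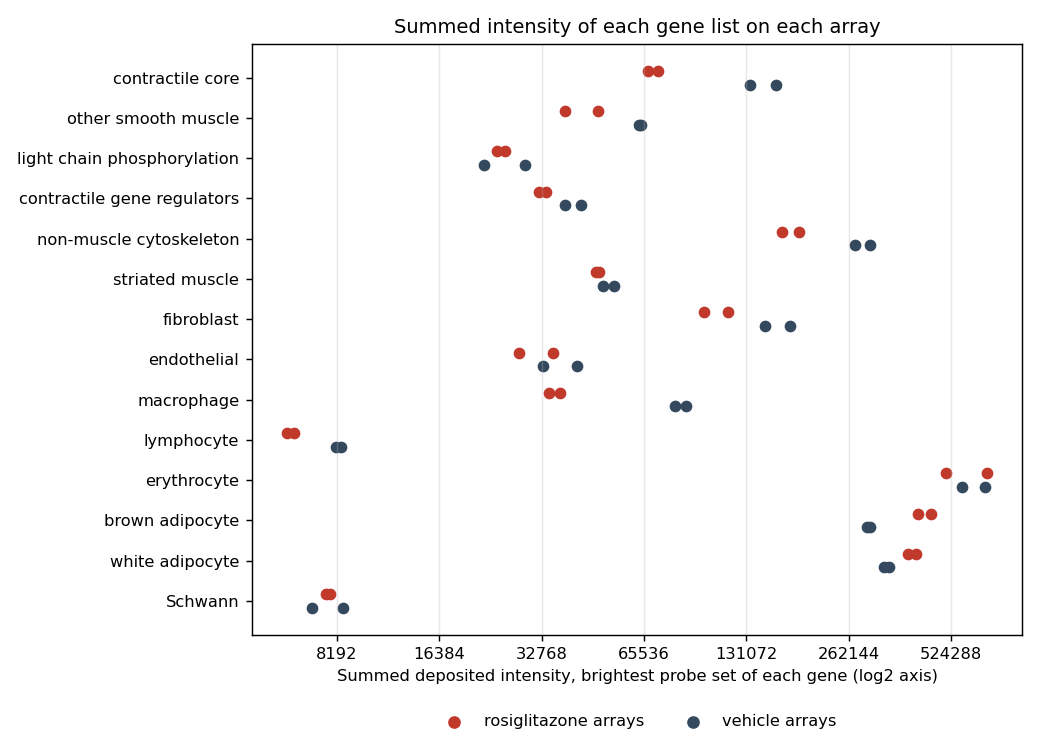
Summed deposited intensity (log2 axis) of the brightest probe set of each gene in each list, with the rosiglitazone arrays in red above the vehicle arrays in dark. The core, other smooth muscle, regulator, non-muscle cytoskeleton, fibroblast, macrophage and lymphocyte sums are lower on both rosiglitazone arrays, and both adipocyte sums are higher on them. The striated muscle sums are lower on them by a small margin that depends on Actc1.

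The mean profile of the core, centred on each gene's mean, lay at -0.55 and -0.55 with rosiglitazone, against 0.45 and 0.64 with vehicle (log2). The 5 genes outside the core nearest to it by root mean square distance over the 4 arrays were Irf9 at 0.0197, S100a6 at 0.0400, Atf3 at 0.0433, Ccn1 at 0.0520 and Pole3 at 0.0584. Irf9 is an interferon response factor, S100a6 a calcium-binding protein, Atf3 and Ccn1 early response genes, and Pole3 a subunit of a DNA polymerase. Within the core the nearest gene was Mylk at 0.127 and the farthest were Smtn at 0.682 and Tpm2 at 0.735. Over 4 arrays many of the 5466 genes tested can follow such a profile.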

How the data were processed

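The authors' deposited values are hybridisation intensities per probe set on a linear scale. Software, background correction and genome build are not given in the sources used here. Of 12488 probe sets on the array, 66 controls were not used, and 10833 of the rest had 1 gene symbol in the platform's probe table, 396 several and 1193 none listed. Symbols were looked up by gene identifier in RefSeq (GRCm38.p6, 10817 found, 0 changed).

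Intensities were floored at 148, log2 was taken, and probe sets with a mean log2 intensity under that of 414 were dropped. R 4.3.3 with limma 3.58.1 (lmFit, eBayes with an intensity trend) compared rosiglitazone with vehicle, two-sided, with Benjamini-Hochberg adjustment over 7134 probe sets at 0.05. Residual degrees of freedom were 2, with 7.14 borrowed. The procedure was tested on simulated data. Exact permutation of 2 against 2 arrays cannot give a p under 0.333 and was not used. The number of arrays limits the precision.

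The members and the 13 other lists were chosen with earlier results of these data known, so no p is given over a list. The brightest probe set stood for a gene in lists, which share Ilk and Csrp2. From the smooth muscle and regulator lists up to 4 genes with the smallest p were named, all measured paralogues could be named, and the 5 genes most like the core were taken by distance. Ppp1cb, Ppp1r14b, Cacna1c and Rock1, the 4 light chain phosphorylation genes with the smallest p, were named after their values were seen. So were Rhoa, Hba-a1, Cd14 and Fabp3, the last 2 as the only list genes outside the core past the threshold. Promoters and motifs were read from the RefSeq table with Python 3.11.15. Alternatives were other floors, no filter, 2 scalings, no trend and each array left out.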

Additional observations from a re-analysis of the deposited data

How the results depend on the processing

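The core's median log2 fold change stayed between -1.16 and -0.92 under every alternative, and 8 to 10 of its 10 or 11 probe sets had rosiglitazone arrays below vehicle arrays. The share over all probe sets was 14 to 21.8% with all arrays and 35.2 to 38.1% with 1 array left out. The call of Tagln did not stay. With no floor 0 core probe sets passed in limma (17 over all probe sets, Tagln at adjusted p = 0.0583), with a floor at the 40th percentile 0 (0 over all, 933 at an unadjusted p under 0.05), with no filter on dim probe sets 0 (0 over all, 1202 at an unadjusted p under 0.05), with each array centred on its median 0 (19 over all) and without an intensity trend 0 (7 over all). In each of these, 7 or 8 core probe sets had an unadjusted p under 0.05. The started log and quantile normalization kept the call, at adjusted p = 0.0382 and 0.0298. With 1 array left out, the lone array of a group being assumed to vary like the other group, 0 to 4 core probe sets and 1 to 78 of all passed. The log2 fold change of Tpm2 was -0.90 to 0.49 there, positive without rosiglitazone replicate 2 (0.49) and without vehicle replicate 4 (0.34). The cause of these losses was not tested. With no detection calls in the table, how far Smtn and Tpm2 stood above background is unknown. With no filter the dim probe set of Tpm2 had a log2 fold change of -0.97 (limma, adjusted p = 0.528). No paired analysis was possible because the groups share no replicate number.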
